A study of Homo sapiens with 44 samples.

Results

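Peaks opened by both interferons were the chromatin regions of human colon fibroblasts whose accessibility was higher after IFNα and also after IFNγ. Accessibility was measured by ATAC-seq, in which a transposase cuts open DNA and adds sequencing adaptors. For each library, the summed read coverage of a peak was divided by the coverage of all peaks and expressed per megabase of that total (coverage per Mb). A peak was a member when the mean of log2(coverage per Mb + 0.5) rose by at least 0.8 over unstimulated cells with each interferon, and when its mean coverage was at least 3 per Mb with each of them. This rule kept 654 of 407383 peaks (0.161%). A further 4071 peaks passed for IFNγ only and 915 for IFNα only. The members were therefore chosen on the unstimulated, IFNα and IFNγ libraries, and their levels in those libraries are given below as a description without a test.

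The cells were Ccd18-Co, a fibroblast line from human colon that is a single line and so stands for 1 genetic background. The 44 libraries formed 11 groups of 4: unstimulated cells and cells given IFNα, IFNγ, TNF, OSM (oncostatin M), TGF-β1, IL-13, IL-6, IL-17A or IL-22 at 10 ng/ml, or IL-1β at 0.1 ng/ml. These doses are those of the labels, and a lower one for IL-1β is stated in one place of the paper. Per the study's methods, every group was serum-starved for 72 h before cytokines were added for 24 h in serum-free medium. The labels do not say whether replicates came from separate cultures, so p-values below measure the spread between these libraries, which may be technical. The plots name IFNα, IFNγ, IL-1β and TGF-β1 by the gene symbols IFNA, IFNG, IL1B and TGFB1.

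Type I interferons such as IFNα act through a receptor that activates ISGF3, a complex that includes STAT2 and IRF9 and binds the interferon-stimulated response element (ISRE). IFNγ acts through a different receptor, whose signalling leads to binding at gamma-activated sites (GAS), and it induces IRF1, a transcription factor that also binds ISRE-like sequences. Both routes lead to antiviral, antigen-presenting and chemokine genes, which fibroblasts as well as immune cells can express.

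Library coverage ran from 148.8 Mb for IL-6 replicate 4 to 823.1 Mb for IFNα replicate 2, so that the minimum level of 3 per Mb stood for 5.95 reads of 75 bases in the shallowest library and 32.9 in the deepest. IL-6 replicate 4 stood apart, with no coverage in 27.1% of all peaks and in 32 members. The counts of members called for IL-6 are given with and without it, and the other values include it. The fibroblast label was checked on promoter-class peaks. The 9 fibroblast markers with such a peak had a median level of 12.9 per Mb, and the 4 endothelial markers a median of 0.546, against 2.95 over all promoter-class peaks. LUM, at 0.548 per Mb, was the 1 fibroblast marker with a low promoter. Epithelial and leukocyte markers were not analysed here.

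The sequences of 5 members are shown because they span the range of responses, 3 of them among the 4 members with the largest change under both interferons and the other two the ends of the balance between IFNγ and IFNα. Each is a stretch of 81 bases of the hg38 plus strand, and capitals mark the ISRE string GAAANNGAAA or its reverse complement TTTCNNTTTC. The IFIT2 stretch is the centre of its peak and has no capitals, since that peak held neither an ISRE nor a GAS string.
BST2 promoter, chr19:17405710-17405790: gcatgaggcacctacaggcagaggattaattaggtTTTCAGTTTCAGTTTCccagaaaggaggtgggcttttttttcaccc
LOC100506321, intron of MAX, chr14:65081525-65081605: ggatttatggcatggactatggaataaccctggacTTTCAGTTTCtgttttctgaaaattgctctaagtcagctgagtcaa
FAM71A, distal, chr1:212635363-212635443: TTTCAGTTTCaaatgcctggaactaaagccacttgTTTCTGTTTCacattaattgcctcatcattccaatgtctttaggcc
LGALS17A, distal, chr19:39678166-39678246: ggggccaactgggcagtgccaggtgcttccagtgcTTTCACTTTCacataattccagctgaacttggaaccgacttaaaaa
IFIT2, intron of LIPA, chr10:89310228-89310308: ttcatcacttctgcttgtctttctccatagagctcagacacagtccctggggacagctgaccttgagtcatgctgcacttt

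The BST2 stretch held overlapping ISRE strings and the FAM71A stretch a pair of separate ones. Across the members, 313 of 654 held at least 1 ISRE string on either strand (47.9%), against 9.13% of all peaks of the same width, 43.6% of the peaks that passed for IFNγ only and 9.62% of those that passed for IFNα only. The longer string GAAANNGAAACT was found in 15.0% of members and 0.638% of all peaks. At least 2 ISRE strings occurred in 13.5% of members against 0.867% of all peaks. The other strings searched were less unequal. The GAS string TTCNNNGAA was present in 22.6% of members and 17.2% of all peaks, the AP-1 string TGANTCA in 35.5% against 25.7%, the NF-κB string GGGANNTTCC in 3.52% against 2.78%, and the STAT6 string TTCNNNNGAA in 14.7% against 14.4%. The string GGGCGG of the SP1 family was present in 17.0% and 16.0%. GAS strings that did not overlap an ISRE string occurred in 20.6% of members and 17.1% of all peaks, and 275 members held neither an ISRE nor a GAS string. A string match is a description of the letters and not a binding site.

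The ISRE strings of members lay near the middle of the peak. In the 313 members with an ISRE string, the one nearest to the centre was within 100 bases of it in 77.0%, at a median distance of 54 bases. Over all peaks with an ISRE string these values were 44.1% and 114 bases. The plot of ISRE positions shows the same for peaks that passed for IFNγ only, while those that passed for IFNα only had no rise at the centre.

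**Figure D1:**
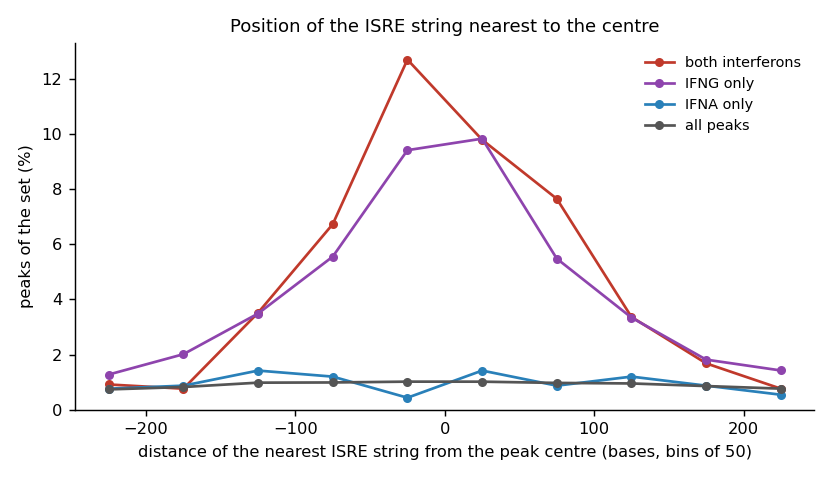
Percent of each set of peaks (y axis) whose ISRE string nearest to the centre lies in a bin of 50 bases (x axis, distance from the peak centre in bases). Points stand for members (both interferons, 654 peaks), peaks that passed for IFNγ only (4071) or IFNα only (915), and all 407383 peaks; the 2 bins beside the centre held 12.7% and 9.79% of the members and 1.02% of all peaks each.

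By the deposited classes, 69 members were promoter peaks (10.6%, against 7.15% of all peaks), 42 exonic, 338 intronic and 205 distal. The median distance to a GENCODE start site was 5.84 kb, against 8.71 kb over all peaks, and the median GC content was 44.3% against 45.1%. Among promoter members 40.6% held an ISRE string, against 6.64% of all promoter peaks. When members within 10 kb of each other were joined, they fell into 610 loci, of which 581 held a single member and 8 held 3 or more.

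The locus with most members lay on chromosome 1 from 1013058 to 1020366, where 6 members carried the deposited name AGRN. The member in an intron of ISG15, which encodes a ubiquitin-like antiviral protein, was the one with the most coverage there and held 3 ISRE strings. It had a mean of 14.7 per Mb in unstimulated cells, 40.7 with IFNα and 32.0 with IFNγ. The other 5 members of that locus held no ISRE string. IFIT3 and IFITM1 had 5 members each. In both loci the member with the most coverage held 2 ISRE strings and lay within 0.1 kb of a start site, while 3 of the IFIT3 members and 4 of the IFITM1 members held none. Deposited names did not always name the gene with the nearest start site.

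Members together took 0.199 ± 0.00781% of all coverage in unstimulated cells (mean ± SD, n = 4), 0.473 ± 0.0259% with IFNα and 0.612 ± 0.00612% with IFNγ, as the rule requires. The replicates were close. The IFNα libraries lay between 0.436% and 0.495%, and the IFNγ libraries between 0.604% and 0.618%. The other cytokines lay far lower, at 0.315 ± 0.00547% for TNF, 0.290 ± 0.00449% for OSM and 0.267 ± 0.00881% for IL-1β. The remaining groups ran from 0.236% for IL-17A and TGF-β1 to 0.251% for IL-13. All 8 of those groups lay above unstimulated cells, but the rule selected on low unstimulated values, so that difference was not tested. In bulk libraries, more cells with an open region and a wider opening per cell cannot be told apart.

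**Figure D2:**
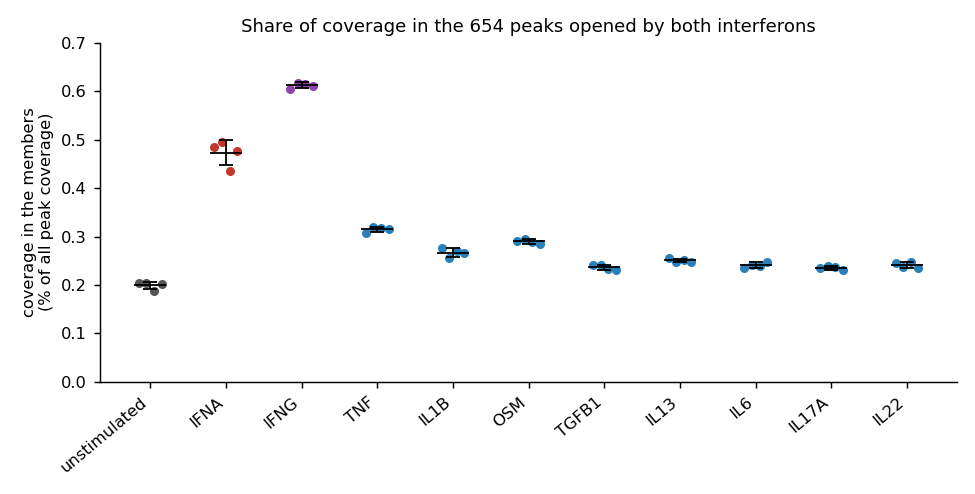
Share of each library's coverage that fell in the 654 members (y axis, percent of all peak coverage) by group (x axis). Points are libraries and black bars the mean ± SD of 4; IFNA (0.473%) and IFNG (0.612%), which chose the members, lie above TNF (0.315%) and the other groups.

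At the level of single members, the median change was 1.05 with IFNα and 1.37 with IFNγ in log2(coverage per Mb + 0.5), where the added 0.5 shrinks the change of peaks with little coverage. The median level was 2.15 per Mb in unstimulated cells, 5.28 with IFNα and 7.45 with IFNγ. In 505 members all IFNα libraries lay above all unstimulated libraries (2.21% of all peaks do so), and in 588 members all IFNγ libraries did (3.54% of all peaks). Both held in 481 members. These counts follow from the rule. In 128 members all 8 interferon libraries lay above all 32 libraries of the other cytokines, which was so in 0.0415% of all peaks. The smaller of the 2 changes was under 1 in 342 members and at least 2 in 25. Just inside the threshold were peaks named MYCBPAP (smaller change 0.80001) and DPYSL3 (0.8011), and just outside were peaks named DISP3 (0.7997) and MYL9 (0.7995), so the edge of the set has no gap.

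Of the 654 members, only 69 carried a gene name spelled as on one of the gene lists searched. The counts per list also took synonyms of the listed genes, and XAF1 was counted in each list that held it. Antiviral effectors had the most members of these lists. Of 32 such genes, 19 had a member, and 30 of the 403 peaks named for them were members (7.44%), against 0.161% of all peaks. OAS2 makes the oligoadenylates that activate RNase L, and the peak over its start site (chr12:112978182-112978682, hg38, untranslated part of an exon) had the largest smaller change of all members. Its coverage was 2.43, 2.54, 2.02 and 2.88 per Mb in the unstimulated libraries, 36.7, 35.4, 36.0 and 34.0 with IFNα and 28.0, 29.6, 34.8 and 30.4 with IFNγ. The 8 interferon libraries lay above every other library, where the highest group mean was 4.04, with OSM.

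BST2, or tetherin, holds budding virus at the cell surface, and its promoter member (chr19:17405416-17405916) was second. Its coverage was 0.714, 0.934, 2.03 and 1.72 per Mb in unstimulated cells, 20.9, 22.9, 23.1 and 19.5 with IFNα, and 17.9, 18.7, 15.6 and 19.7 with IFNγ. The interferon groups overlapped each other and not the unstimulated group. Among other antiviral members, the peak over the start of IFIT3 (chr10:89327734-89328234) rose by 1.27 with IFNα and 1.37 with IFNγ, from 9.84 to 24.3 and 26.1 per Mb, and a member at XAF1, a proapoptotic gene, rose by 1.16 and 0.96. Antiviral genes with a member also included IFIT1, MX2, OAS1, OASL, ISG20, IFI27, IFI44, IFI44L, RSAD2, HERC6 and SHFL.

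Sensors of viral nucleic acid and related enzymes had 5 members at 3 of 15 genes with a peak. The DHX58 member, at the gene for the RIG-I-like receptor LGP2 (chr17:42111981-42112481), was already open, at 6.94, 6.64, 7.48 and 8.25 per Mb in unstimulated cells. It reached 19.9, 19.5, 19.0 and 24.7 with IFNα and 18.6, 18.6, 18.7 and 14.9 with IFNγ. PARP14, a mono-ADP-ribosyltransferase, had 3 members and STING1, the adaptor of the cytosolic DNA sensor, had 1.

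Signalling genes and transcription factors had 12 members at 6 of 24 genes. ETV7, an interferon-inducible ETS-family repressor, had a promoter member that changed by 1.63 with IFNα and 2.05 with IFNγ. SP100 and PML, which build PML nuclear bodies, and BATF2 had 1 each, while STAT2, IRF7 and IRF9 had none.

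Antigen presentation had 8 members at 6 of 27 genes. The peak named B2M, which encodes the light chain of MHC class I, lay 3.96 kb from its start (chr15:44719529-44720029) and formed a locus with 2 members named TRIM69. Its coverage was 1.33, 0.911, 2.30 and 2.11 per Mb in unstimulated cells, 9.56, 8.85, 8.40 and 7.78 with IFNα and 10.9, 9.31, 12.9 and 7.94 with IFNγ, so that both interferon groups lay above the unstimulated range. Members also lay at HLA-C (3), HLA-E, HLA-F, NLRC5 and CIITA, the last 2 being the transactivators of MHC class I and class II. The 2 distal members named MIR6891 had HLA-B as their nearest start site, at 3.50 and 4.02 kb. HLA genes share near-identical stretches, and how reads with several matches were treated is not given in the sources used here, so levels there may be split between copies.

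Chemokines, checkpoints and cytokines had 6 members at 4 of 16 genes, all chemokines: 2 at CXCL10, 2 at CCL2 and 1 each at CXCL11 and CCL8. CXCL10 attracts CXCR3-bearing lymphocytes, and its promoter member (chr4:76023341-76023841) stood at 1.24, 1.69, 0.228 and 0.770 per Mb in unstimulated cells. It rose to 10.0, 8.83, 12.6 and 10.9 with IFNα and to 6.54, 7.38, 6.32 and 7.85 with IFNγ. The GTPase list had 4 members at GBP1, GBP5 and GBP6, the TRIM list 4 at TRIM22, TRIM38 and TRIM69, and the list of apolipoproteins L and cell death genes 3 at APOL3, APOL6 and XAF1. The lists of feedback genes such as SOCS1 and SOCS3 (143 peaks), NF-κB targets (517) and collagens (535) had no member, which at 0.161% of all peaks is near the background for lists of that size. In all, 597 of 23388 gene names had a member (2.55%).

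The 2 interferons were not balanced across members. The IFNγ change was the larger in 496 members and the IFNα change in 158, and the changes lay within 0.5 of each other in 420. Both groups chose the members, so this is a description without a test.

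At the IFNγ end stood a distal peak named LGALS17A (chr19:39677885-39678385), 2 members at IRF1 and the promoter member of GBP5. LGALS17A stood at 0.886, 1.44, 1.69 and 0.856 per Mb in unstimulated cells, 3.66, 3.24, 3.60 and 2.94 with IFNα and 31.5, 27.4, 36.3 and 31.1 with IFNγ. The IRF1 member chr5:132480908-132481408, 3.34 kb from a start site of the gene, stood at 1.03, 1.99, 2.36 and 2.56 per Mb in unstimulated cells, 5.53, 4.02, 6.63 and 4.44 with IFNα and 41.0, 40.4, 44.5 and 40.8 with IFNγ. In both peaks the 3 groups did not overlap, and IFNα took them a small part of the way to the IFNγ level. GBP5, a guanylate-binding protein of host defence (chr1:89274316-89274816), changed by 1.22 with IFNα and 3.85 with IFNγ.

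At the IFNα end stood IFIT2, MX1, the AGRN promoter peak beside ISG15 and CMPK2, all at or near classical antiviral genes. The IFIT2 member (chr10:89310018-89310518) stood at 0.566, 0.761, 0.648 and 0.462 per Mb in unstimulated cells, 10.6, 14.0, 15.3 and 12.6 with IFNα and 2.92, 3.74, 3.08 and 2.60 with IFNγ. MX1, a dynamin-like GTPase that blocks viral replication, stood at 1.99, 3.56, 3.95 and 3.15 per Mb in unstimulated cells, 22.3, 20.5, 18.3 and 23.9 with IFNα and 8.22, 9.96, 8.71 and 7.78 with IFNγ. Here too the 3 groups did not overlap. The CMPK2 peak, in the untranslated part of an exon of RSAD2 (viperin), changed by 3.19 and 2.15.

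**Figure D3:**
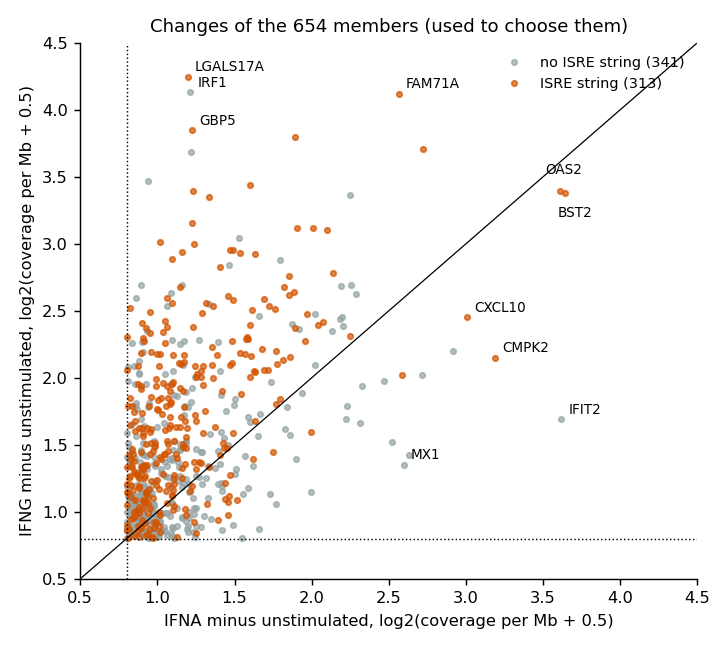
Change of each member with IFNA (x axis) and with IFNG (y axis) against unstimulated cells, as differences of mean log2(coverage per Mb + 0.5) of 4 libraries. Each point is 1 of 654 members, orange with an ISRE string (313) and grey without; dotted lines mark the threshold of 0.8 and the diagonal marks equal change, with 496 members above it and 158 below.

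Sequence content differed along this balance. An ISRE string was present in 28.5% of the 158 members with the larger IFNα change, in 51.8% of the 413 where IFNγ was larger by under 1, and in 65.1% of the 83 where it was larger by 1 or more. For the GAS string these shares were 17.7%, 21.1% and 39.8%. None of IFIT2, MX1 and the AGRN peak held an ISRE string within the peak, while the CMPK2 peak held 1. At the IFNγ end LGALS17A and GBP5 held 1 each, and both IRF1 members there held neither an ISRE nor a GAS string. Promoter peaks made up 19.6% of the members with the larger IFNα change and 3.61% of those with IFNγ larger by 1 or more. By the smaller change, an ISRE string was present in 38.6% of members from 0.8 to 1, 57.3% from 1 to 1.5, 63.3% from 1.5 to 2 and 52.0% of the 25 at 2 or more.

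The libraries of the other 8 cytokines played no part in choosing members, so these regions were tested there. Each cytokine was compared with the mean of the other 7 in a limma fit of those 32 libraries, and a peak was called at a Benjamini-Hochberg adjusted p under 0.05 over 407088 peaks. A raised or lowered call is thus relative to the other cytokines and not to unstimulated cells. All 654 members passed the filter on low values. At least 1 call was made in 316 members, and 338 had none.

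TNF, an activator of NF-κB, raised 114 members (17.4%), where 3.23% of all peaks were raised, and lowered 11 (1.68%, against 1.9%). OSM, a cytokine of the IL-6 family, raised 77 (11.8%, against 2.73%) and lowered 15 (2.29%, against 2.28%). IL-1β raised 57 (8.72%, against 2.52%) and lowered 46 (7.03%, against 2.69%). The median change over members was 0.20 for TNF and 0.14 for OSM on the log2 scale, against -0.003 and -0.22 over all peaks. With a correction for GC content the OSM calls were 173 raised and 5 lowered, against 6.51% and 0.759% of all peaks. The IL-1β calls were then 47 raised (7.19%, against 1.84% of all peaks) and 61 lowered (9.33%, against 3.45%). Over all peaks the IL-1β calls shifted the same way, from 10253 raised and 10953 lowered to 7497 and 14045. Without OSM replicate 1, 2 or 3 the OSM calls in both directions fell from 92 to 57, 53 and 59. Calls over all peaks without those libraries were not compared.

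TGF-β1, the main inducer of myofibroblasts, lowered 83 members (12.7%, against 2.96% of all peaks) and raised 43 (6.57%, against 6.07%). The median change over members was -0.13, against 0.22 over all peaks. With the GC correction, which brought the median of all peaks to 0.01, 147 members were lowered (22.5%, against 5.50%) and 20 raised (3.06%, against 1.63%). IL-13, a type 2 cytokine that activates STAT6, lowered 58 (8.87%, against 3.16%) and raised 38 (5.81%, against 2.24%). Against unstimulated cells, whose low values the rule selected, most calls were raised instead, with 82 raised and 12 lowered for TGF-β1 and 48 and 7 for IL-13. Over the 407176 peaks of that comparison, 8067 were raised and 6206 lowered for TGF-β1, and 2971 and 3582 for IL-13.

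IL-6 raised 3 members (0.432% of all peaks were raised) and lowered 31 (0.992%). Without IL-6 replicate 4 the numbers were 0 and 11. Calls over all peaks fell too, from 1759 raised and 4039 lowered to 488 and 589. IL-17A raised 1 (0.342%) and lowered 11 (0.361%), and IL-22 raised 1 (0.219%) and lowered 14 (0.243%). Leaving out single libraries gave 7 to 16 called members for each of these 2 cytokines. Calls over all peaks in those settings were not compared. Without IL-17A replicate 1, 7 members were called, and without IL-22 replicate 1, 2 or 4, 9, 9 and 7 were.

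**Figure D4:**
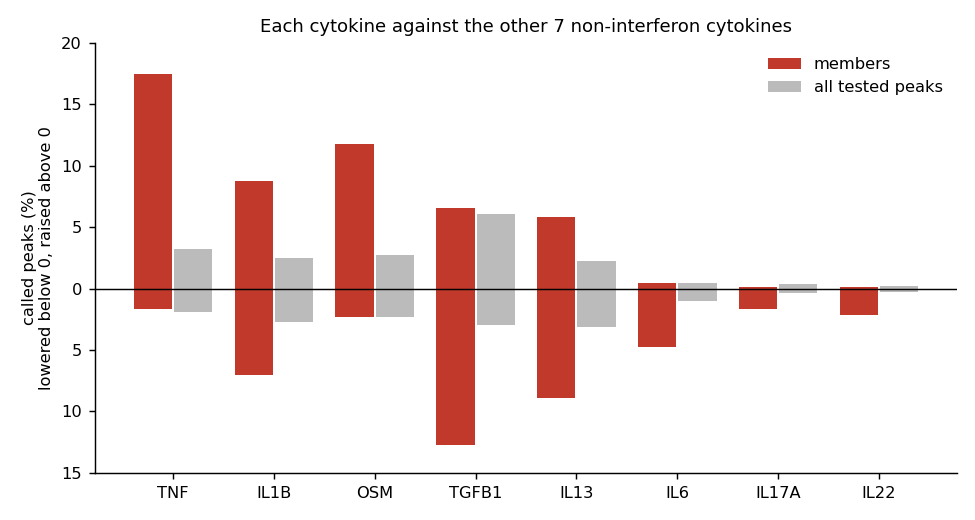
Percent of peaks called raised (above 0) or lowered (below 0) at limma adjusted p under 0.05 (y axis) for each of 8 cytokines against the other 7 (x axis), for the 654 members (red) and all 407088 tested peaks (grey). Members were raised with TNF in 17.4% against 3.23%, and lowered with TGFB1 in 12.7% against 2.96%.

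Members had more coverage than most peaks, with a median over the 32 libraries of 3.06 per Mb against 0.772, so the shares were compared again in the window from 2.04 to 4.82 per Mb, which held 326 members and 52904 peaks. There TNF raised 18.4% of members against 7.34% of peaks, OSM raised 11.3% against 4.94%, and TGF-β1 lowered 10.7% against 4.33%. For IL-1β the raised shares were 8.59% and 6.17%, and for IL-13 the lowered shares were 7.67% and 8.35%, so within that window members and other peaks were close.

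Among the gene lists, chemokine members had the highest median TNF change, 1.93. Of the 6, TNF raised 5 and IL-1β 4, where 3.23% and 2.52% of all peaks were raised. OSM lowered 3 (2.28% of all peaks), TGF-β1 3 (2.96%), IL-22 2 (0.243%) and IL-6 1 (0.992%). These lowered calls are relative to a mean that holds TNF and IL-1β, so they need not be falls below the unstimulated level. At the CXCL10 promoter the TGF-β1 mean was 0.979 per Mb, the OSM mean 0.787 and the unstimulated mean 0.983. The 6 members were not separate regions, since the CXCL10 and CXCL11 members formed 1 locus and the CCL2 members another. At the CXCL10 promoter the TNF libraries held 7.62, 8.71, 12.0 and 9.19 per Mb, which overlaps the IFNα range, and the change was 2.57 ± 0.26 (log2 ± SE, limma, adjusted p = 1.03e-16). The CCL2 members lay 2.12 and 2.66 kb from the start site of this monocyte chemoattractant gene. The one at chr17:34257691-34258191 changed by 2.25 ± 0.22 with TNF (limma, adjusted p = 1.92e-17) and by -1.77 ± 0.22 with TGF-β1 (limma, adjusted p = 2.98e-11). With TGF-β1 its libraries held 0.235, 0.336, 1.06 and 1.11 per Mb, and with TNF its mean was 12.3. Its unstimulated libraries held 0.629, 2.86, 2.46 and 1.40 per Mb, which overlaps the TGF-β1 range.

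The largest TNF change belonged to a distal member named LINC02539 (chr6:137709876-137710376), at 3.24 ± 0.25 (limma, adjusted p = 2.75e-26). Its TNF libraries held 16.7, 15.5, 14.4 and 19.6 per Mb, above both IFNα (mean 4.10) and IFNγ (5.21). An intronic member of TTLL4, a tubulin glutamylase gene, had the largest IL-1β change, at 2.00 ± 0.20 (limma, adjusted p = 1.49e-17), with 14.8, 17.3, 14.3 and 17.2 per Mb. The TNF mean there was higher still, at 20.7. TNF in both regions, and IL-1β at TTLL4, had a higher mean than either interferon.

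OSM had its largest change at a distal member named TEX44 (chr2:231621474-231621974), with 10.7, 8.82, 11.6 and 10.4 per Mb and a change of 1.98 ± 0.22 (limma, adjusted p = 2.36e-13). A member in an intron of GART, named DNAJC28, followed at 1.88 ± 0.24 (limma, adjusted p = 3.39e-10). In both, the OSM mean lay between the IFNα and IFNγ means, and both held ISRE and GAS strings. The lowest OSM change was at the SLC51A member, -1.36 ± 0.24 (limma, adjusted p = 1.09e-05). There TNF had a mean of 12.4 per Mb, IL-1β 5.63 and OSM 0.736. The OSM libraries, from 0.327 to 1.12, overlapped the unstimulated ones, from 0.570 to 2.51, so the call is relative to a mean that holds TNF and IL-1β.

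TGF-β1 raised a distal member named ICE1 to 18.5, 20.3, 18.8 and 19.0 per Mb (2.26 ± 0.19, limma, adjusted p = 4.78e-23), where no other group mean exceeded 5.10. IL-13 raised an intronic member of SH3RF3, named MIR4265, to 10.1, 10.6, 9.70 and 7.85 per Mb (1.83 ± 0.23, limma, adjusted p = 1.78e-11), and lowered a distal member named BET1 to 3.23, 0.621, 0.785 and 2.79 (-1.84 ± 0.21, limma, adjusted p = 8.78e-14). For IL-6 the largest change was at the KCCAT198 member, -1.72 ± 0.20 (limma, adjusted p = 1.06e-11). Its IL-6 mean of 1.18 ± 0.62 per Mb (SD, n = 4) was near the unstimulated mean of 1.58 ± 0.76, while TNF, IL-1β, OSM and TGF-β1 had means of 6.61, 7.15, 5.70 and 9.10, so that the call reflects their levels in the comparison.

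**Figure D5:**
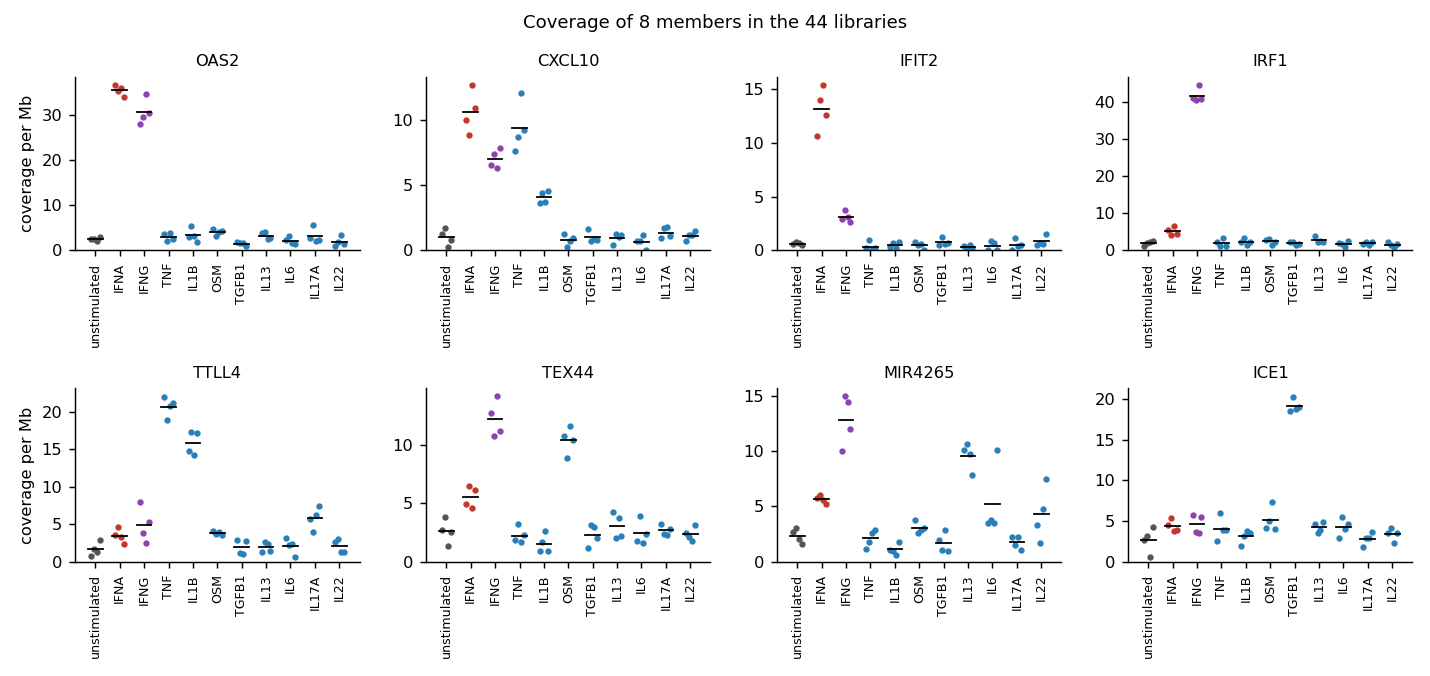
Coverage per Mb (y axes, each from 0) of 8 members in the 44 libraries, by group (x axes). Points are libraries and lines the mean of 4; OAS2 rose with both interferons, IFIT2 most with IFNA, IRF1 most with IFNG, CXCL10 and TTLL4 also with TNF and IL1B, TEX44 with OSM, MIR4265 with IL13 and ICE1 with TGFB1.

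Among the 30 antiviral members, TNF raised 1, the IFIT3 intron member, by 1.78 ± 0.28 (limma, adjusted p = 2.77e-07), a share of 3.33% that was near the 3.23% of all peaks. No call was made there with IL-1β, where 2.52% of all peaks were raised. OSM raised 4 (13.3%, against 2.73% of all peaks), among them the distal IFITM1 member at 317640 (1.01 ± 0.29, limma, adjusted p = 0.0185). TGF-β1 lowered 7 (23.3%, against 2.96%) and raised none, with a median of -0.28. It lowered 9.47% of all promoter-class peaks and 4.33% of peaks in the coverage window given above. OAS2 was among the 7, at -0.71 ± 0.23 (limma, adjusted p = 0.0323), together with members at HERC6, MX2, IFIT1 and IFITM1. In the 12 signalling members TGF-β1 lowered 1, at BATF2, by 0.66 on the log2 scale, and there was no call with TNF, IL-1β, OSM or IL-13, which in a list of 12 is near the shares of all peaks.

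Calls were also counted by sequence string. TNF raised 14 of the 23 members with an NF-κB string (60.9%) and 100 of the 631 without (15.8%), where over all tested peaks it raised 12.9% with the string and 2.96% without. By ISRE string the TNF share was 17.6% with and 17.3% without, against 3.09% and 3.25% of all peaks. OSM raised 16.9% of the 148 members with a GAS string and 10.3% of the 506 without, against 3.7% and 2.53% of all peaks. IL-13 lowered 14.2% of the 232 members with an AP-1 string and 5.92% of the other 422, against 7.97% and 1.5% of all peaks. TNF raised 23.3% and 14.2% of the same members, against 6.66% and 2.05% of all peaks. In each of these pairs apart from the ISRE string, members and all peaks had the higher share with the string. Strings and coverage can go together in one peak, and their part in these shares was not tested.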

How the data were processed

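Chromatin accessibility was measured by ATAC-seq in 44 libraries. The authors aligned reads to hg38 with the ENCODE ATAC-seq pipeline, and the deposited signal is unscaled coverage, added up over the bases of each of 407383 peaks. Coverage follows whole reads rather than transposase cut sites, and the deposited peaks all have 1 width. The study's methods describe MACS2 calls of varying length joined into a consensus for bulk libraries and fixed-width ArchR peaks of 500 bases for single-cell data. They do not say which gave this table, but its peaks have the 500-base width of the ArchR peaks. Since coverage is not a count, limma 3.58.1 (R 4.3.3) replaced the count models that the study describes. Coverage was divided by library totals and a trimmed mean of log ratios (trimming 30% of log ratios and 5% of means), 0.5 was added and log2 taken. Peaks with a log2 mean of -3 or below were left out (295 of 407383). Values printed per library were divided by library totals only. Coordinates are as deposited and sequence was read from hg38 with both ends included. Strings were searched on both strands, and gene names follow the deposited table. Scripts were tested on simulated data. The members, gene lists and tests were chosen with earlier results of these data known.

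Replicate numbers came from the labels. Same-numbered libraries did not deviate together (mean correlation 0.00316 over 112 pairs, from -0.0178 to 0.0390), so no replicate block was used. Named members were the 10 with the largest smaller change, the 4 at each end of the balance between interferons, up to 3 per gene list, and up to 2 raised and 2 lowered per cytokine, of which most are reported. The ISG15, IFITM1, KLHDC7B and IFIT3 start-site members and the list members named for calls were chosen after their values were seen. Alternatives were other scalings, a pseudocount of 2, no low filter, a GC correction in 20 bins, a replicate block and leaving out single libraries. Some members are not reported here.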

Additional observations from a re-analysis of the deposited data

Results flagged for a closer look

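Outliers were sought with Dixon's test in 65 groups of 4 libraries, made of the share of coverage in members and the members at the ends of the ranking, and 2 were found. Chance gives about 1 in 20 groups. The share of coverage in members was 0.187% in unstimulated replicate 3, against 0.201% to 0.204% in the other 3. Without that library the rule kept 666 peaks, 511 of them among the 654. At the IRF1 member at 132480908, IFNγ replicate 3 held 44.5 coverage per Mb, against 40.4 to 41.0 in the others.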

How the results depend on the processing

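Scaling the rule's libraries by a trimmed mean of log ratios or median-of-ratios kept 778 and 772 peaks, with all 654 members among them, and the GC correction kept 708, with 643. The number of members was 223 with a pseudocount of 2, 1731 with a minimum group mean of 1 and 312 with a minimum change of 1. Without a single library it ran from 634 to 764, and 511 to 632 of the 654 remained. The ISRE share of 47.9% was 15.0% with the longer string and 36.1% in the central 200 bases. The planned calls of IFNγ against IFNα and their alternatives were not run, since both groups chose the members.

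In the cytokine tests the OSM count of 92 was 178 with the GC correction. Counts against unstimulated cells are no check of these calls, since the rule selected low unstimulated values and so favours raised ones. They were 140 for OSM (140 raised, 0 lowered), 55 for IL-13 in place of 96 (48 and 7, against 38 and 58) and 8 for IL-6 in place of 34 (8 and 0, against 3 and 31). For TGF-β1 they were 82 raised and 12 lowered in place of 43 and 83. Because the selection favours raised calls, these cannot tell whether TGF-β1 lowers members against unstimulated cells. Over all 407176 peaks tested against unstimulated cells, 6330 were raised and 5257 lowered for OSM, and 2971 and 3582 for IL-13. The numbers were 174 and 262 for IL-6 and 8067 and 6206 for TGF-β1. Leaving out single libraries gave 88 to 132 members for TNF, 72 to 114 for IL-1β, 53 to 109 for OSM, 86 to 147 for TGF-β1, 70 to 114 for IL-13, 11 to 38 for IL-6, 7 to 16 for IL-17A and 7 to 16 for IL-22. The cause was not tested. IL-6 replicate 4, the shallowest library, accounts for the lowest IL-6 count. The replicate block, with no evidence that numbers pair the libraries (12 of 32 correlated best with their own number), gave 104 calls for IL-1β and 127 for TGF-β1, and the same count as without the block for the other 6 cytokines.

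Of 326 alternative values for the 30 named changes, 297 stayed past the threshold, 29 did not, and 0 reversed. The 29 came from 10 changes, among them the lowered calls of OSM at MIR6891, of TNF at WDR25 and RMC1, and 7 of the 10 named IL-6, IL-17A and IL-22 calls, at ADPRHL2, C15orf54, FZD1, COPS8, DGCR2, SUCLG2 and IFIT3. Depth limits the lowest values: 3 per Mb was 5.95 reads in the shallowest library, and coverage without molecular identifiers covers counting error only.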

Other observations

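By class, TNF raised 10.1% of the 69 promoter members and 20.0% of the 205 distal ones, against 1.73% and 3.64% of all tested promoter and distal peaks. TGF-β1 lowered 14.5% and 12.2% of these members, against 9.47% and 2.11% of all such peaks. The difference between classes was not tested. A locus on chromosome 22 held 3 members with no ISRE string at TYMP, a thymidine-degrading enzyme gene, ODF3B and KLHDC7B. The KLHDC7B member rose from 9.67 coverage per Mb in unstimulated cells to 21.6 with IFNα and 23.2 with IFNγ. The SUCLG2 intron member was one of the more open members, at 10.3 per Mb in unstimulated cells, 28.1 with IFNα and 28.9 with IFNγ. With IL-1β it stood at 4.30 and with TNF at 5.07.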
